A study of Mus musculus with 36 samples.

Results

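The mitochondrial carrier family was followed in 3T3-L1 cells, mouse fibroblasts that become fat cells under an adipogenic cocktail. Its members were taken from the expression table by symbol, as every gene named Slc25a with a number plus Ucp1, Ucp2 and Ucp3, a rule that uses no measured value. The rule found 50 genes among the 52505 of the table. Of these 50 genes, 38 had a mean of at least 1 FPKM (a level of reads scaled for gene length and library depth) over the 12 libraries and were tested, and 12 lay below that mean. Slc25a31, Slc25a43 and Ucp1 were listed at 0 in every library.

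Carriers of this family are small proteins of the inner mitochondrial membrane that exchange nucleotides, phosphate, carboxylates, amino acids, cofactors and fatty acyl groups between cytosol and matrix. They are made in the cytosol and inserted through the import machinery of both mitochondrial membranes. In fat cells the citrate carrier is known for exporting the carbon used in fatty acid synthesis, and Ucp1 of brown fat is known for making heat by leaking protons.

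The RNA-seq libraries formed 4 groups of 3. They were day 2 cells carrying the zfp217-/- label (called KO-labelled), day 2 wild-type (WT) cells, day 0 KO-labelled cells and day 0 WT cells. All 4 groups came from the 3T3L1 line, and the day counts the time in the MDI cocktail, which per the labels held DEX, isobutyl-methylxanthine, insulin and indometacin. Zfp217 encodes a zinc finger protein, and the series asks how its loss bears on gene expression during fat cell formation. The labels do not say whether the KO-labelled cells were 1 clone or a mixed population, nor whether replicate libraries stem from cultures grown apart. The p-values below therefore measure the spread between these libraries, which may be technical.

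The message of the targeted gene did not fall in the KO-labelled libraries. Zfp217 stood at 21.7, 23.4 and 22.7 FPKM in day 2 KO-labelled cells and at 14.6, 15.3 and 15.3 FPKM in day 2 WT cells. At day 0 it stood at 25.2, 25.8 and 26.9 FPKM in KO-labelled cells and at 21.7, 21.9 and 22.3 FPKM in WT cells. The groups did not overlap at either day (exact permutation test, 2-sided p = 0.1, the smallest that 3 against 3 allows). A table of whole-gene values cannot show a small deletion, so every direction below is that of libraries labelled KO. The recovered reads came to between 18073258 and 23114994 per library. WT day 0 replicate 3 stood apart from the other WT day 0 libraries in 23 genes by at least 4-fold, among them mt-Rnr1 at 264 FPKM, against 7.01 and 5.87 FPKM in replicates 1 and 2; any other library stood apart in 1 to 5 genes, and no carrier gene was among such genes in any library. Without that library the number of carriers higher and lower in KO-labelled cells was the same at both days. The summed level of 6 adipocyte markers was 321 to 334 FPKM in day 2 KO-labelled libraries and 6678 to 6859 FPKM in day 2 WT libraries, while 6 preadipocyte markers summed to 815 to 825 FPKM in day 2 KO-labelled and 143 to 146 FPKM in day 2 WT libraries. At day 0 the adipocyte markers summed to 193 to 203 FPKM in KO-labelled and 65 to 70 FPKM in WT libraries. Of these markers only Lpl was called higher in KO-labelled cells, at a mean of 190 FPKM, against 55.9 FPKM in WT cells. Pparg was lower, at 2.85 against 10.2 FPKM, and the other 4 were not called. The preadipocyte markers summed to 1766 to 1810 FPKM in KO-labelled and 1110 to 1152 FPKM in WT libraries at day 0. Of these, 4 were called higher and Cd34 lower, at 0.28 against 3.94 FPKM. The day 2 groups compared below thus also differed in fat cell markers, and the part of this difference in the carriers was not tested. In these bulk libraries fewer cells of a type and less RNA per cell cannot be told apart. Of 6 brown fat markers 5 stayed below 1 FPKM in every library, and of these Ucp1 and Zic1 were listed at 0 everywhere. Ppargc1a alone exceeded 1 FPKM, with a mean of 2.38 FPKM in day 2 KO-labelled and 6.91 FPKM in day 2 WT cells. Its day 0 means were 3.65 FPKM in KO-labelled and 0.88 FPKM in WT cells.

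The carriers as a whole had a lower summed level in KO-labelled cells, and a smaller share of all FPKM. Their summed level was 1962, 1951 and 1950 FPKM in day 2 KO-labelled libraries, against 3420, 3392 and 3359 FPKM in day 2 WT libraries. At day 0 it was 1633, 1642 and 1645 FPKM in KO-labelled libraries, against 2105, 2065 and 2064 FPKM in WT libraries. The groups did not overlap in any of the 4 comparisons (exact permutation test, 2-sided p = 0.1 each). The sum in KO-labelled cells was 0.576 times that of WT cells at day 2 and 0.789 times at day 0. By this sum day 2 stood above day 0 by 1.19-fold in KO-labelled cells and by 1.63-fold in WT cells. As a share of all FPKM the carriers held 0.292% in day 2 KO-labelled and 0.492% in day 2 WT cells, a ratio of 0.595. The day 0 shares were 0.252% in KO-labelled and 0.297% in WT cells, a ratio of 0.849. Much of the gap in summed FPKM lay in 1 gene: without Slc25a5 the ratio of KO-labelled to WT cells was 0.691 at day 2 and 0.954 at day 0. These are not ratios of shares: at day 0 all FPKM summed to 648310 to 652754 in KO-labelled and 699286 to 701005 in WT libraries. Without Slc25a5 the carriers summed at day 0 to 1538, 1548 and 1548 FPKM in KO-labelled and 1642, 1609 and 1607 FPKM in WT libraries. The share without Slc25a5 was not computed, and the ratio of 0.954 does not give its direction at day 0. The smaller share stated above is thus that of all carriers with Slc25a5 included. The 6 most abundant carriers, Slc25a5, Slc25a4, Slc25a3, Slc25a39, Slc25a1 and Ucp2, held 61% ± 0.408 of the sum in day 2 KO-labelled and 69.9% ± 0.196 in day 2 WT cells (SD, n = 3). At day 0 they held 60.2% ± 0.135 in KO-labelled and 71% ± 0.418 in WT cells (SD, n = 3).

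**Figure D1:**
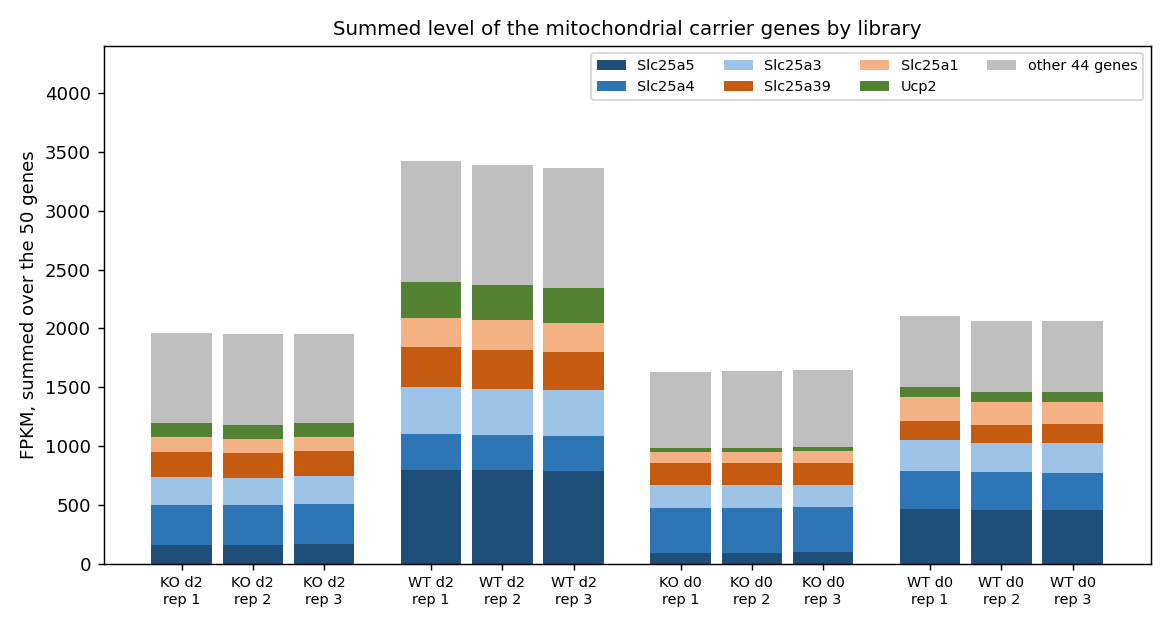
Summed FPKM of the 50 carrier genes in each of the 12 libraries, split into the 6 most abundant carriers and all others. Bars of day 2 KO-labelled libraries reach 1950 to 1962 FPKM and those of day 2 WT libraries 3359 to 3420 FPKM, with the narrowest Slc25a5 layer (dark blue) in KO-labelled libraries at day 0.

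Most carriers differed between the labelled genotypes, as did most genes. At day 2, 16 of the 38 tested carriers were higher and 20 lower in KO-labelled cells (limma on log2(FPKM + 1), adjusted p under 0.05), where 40.8% of all 12961 tested genes were higher and 40.6% lower, or 81.4% in either direction. At day 0, 16 were higher and 15 lower, where 38.3% of all genes were higher and 44.2% lower, or 82.4% in either direction. The median log2 change of the 38 carriers was -0.26 at day 2, beside 0.00 for all genes, and 0.01 at day 0, beside -0.06 for all genes. Changes of at least 2-fold on that scale were fewer: at day 2, 2 carriers were higher and 10 lower, where 12.9% and 11.5% of all genes were. At day 0, 4 carriers were higher and 5 lower by 2-fold, where 10.4% and 11.9% of all genes were. Across both days 12 carriers were lower in KO-labelled cells each time, where 27.9% of all tested genes were, and 9 were higher each time, where 25.5% were. A further 6, among them Slc25a16, Slc25a39, Slc25a44, Slc25a46 and Slc25a51, were lower at day 2 and higher at day 0, as were 6.71% of all genes. Slc25a24 and Slc25a30 were the other way round, as were 9.81% of all genes. Replicates lay close together, with a median coefficient of variation of 3.1% over the 38 carriers. Across those 38 carriers, libraries of the same group correlated with r of 0.998 to 0.999 and libraries of unlike groups with r of 0.813 to 0.944.

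**Figure D2:**
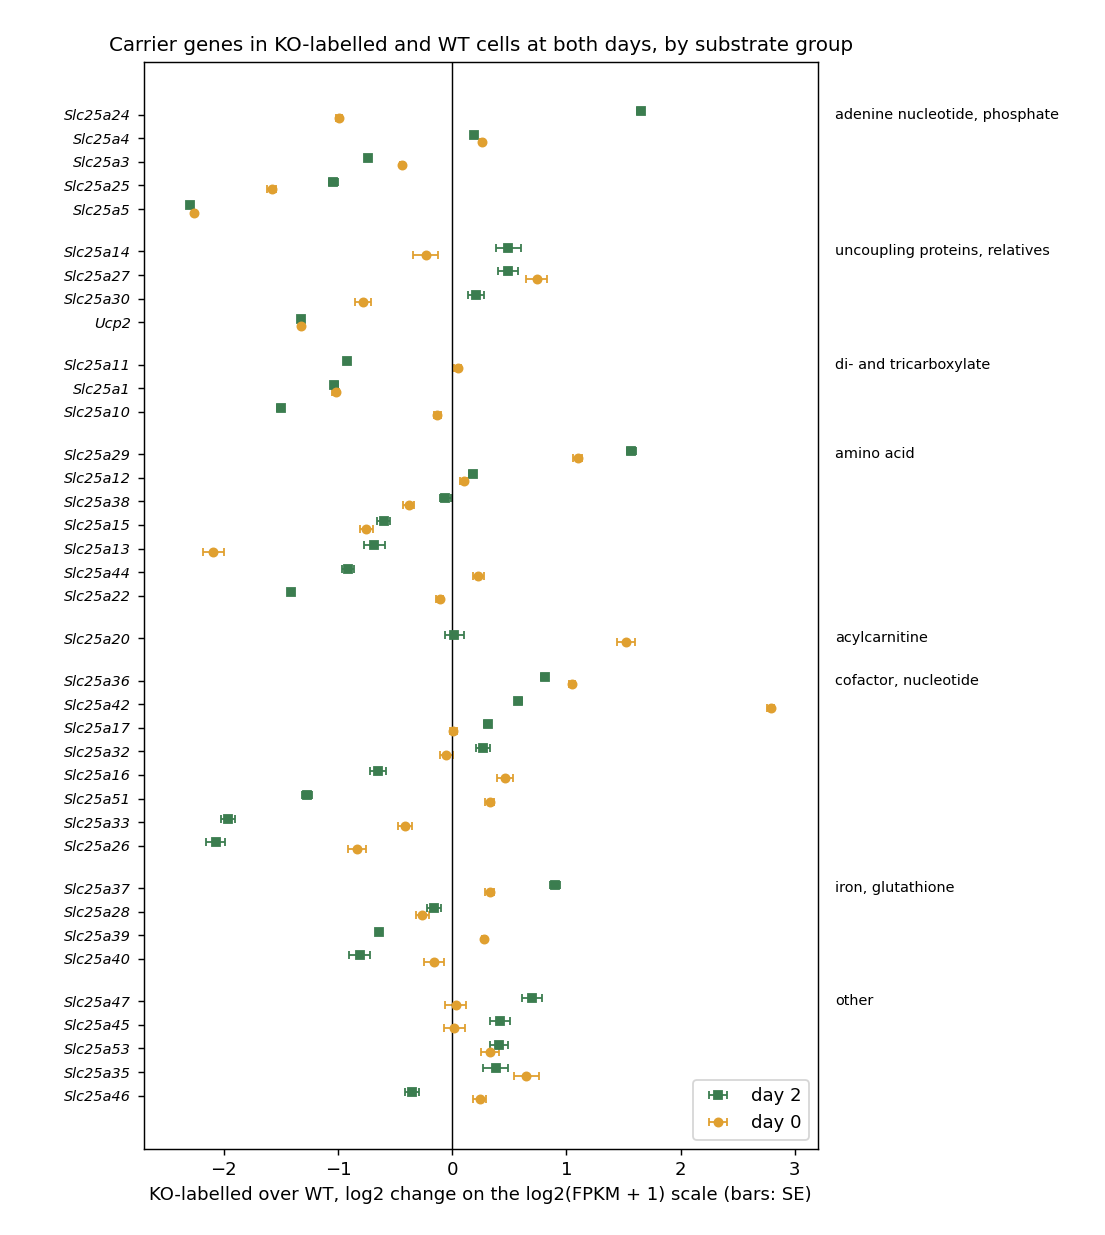
Log2 change of tested carriers, KO-labelled over WT, on the log2(FPKM + 1) scale, at day 2 (green squares) and day 0 (orange circles), grouped by substrate; bars are SE. Slc25a5 lies farthest left at both days, at -2.29 and -2.26, while Slc25a24 lies at 1.65 at day 2 and -0.99 at day 0.

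The ADP/ATP carriers swapped rank between the genotypes. Slc25a5, the ADP/ATP carrier of growing cells, had 161, 160 and 164 FPKM in day 2 KO-labelled cells, against 801, 800 and 790 FPKM in day 2 WT cells. The day 0 values were 94.7, 94.5 and 96.9 FPKM in KO-labelled cells, against 464, 456 and 458 FPKM in WT cells. It was thus lower in all KO-labelled libraries, 4.93-fold at day 2 (log2 change -2.29 ± 0.02 SE, adjusted p = 4.60e-16) and 4.81-fold at day 0 (-2.26 ± 0.02, adjusted p = 1.20e-15). Slc25a4, the ADP/ATP carrier of heart and muscle, went the other way by a small step. It had 338, 337 and 342 FPKM in day 2 KO-labelled cells and 302, 295 and 293 FPKM in day 2 WT cells. At day 0 the values were 381, 379 and 387 FPKM in KO-labelled cells and 323, 320 and 313 FPKM in WT cells. The log2 change was 0.19 ± 0.02 at day 2 (adjusted p = 2.18e-06) and 0.26 ± 0.02 at day 0 (adjusted p = 1.09e-07). Of the FPKM of both genes, Slc25a4 held 67.7% ± 0.0968 in day 2 KO-labelled cells and 27.1% ± 0.216 in day 2 WT cells (SD, n = 3). Its day 0 share was 80% ± 0.0595 in KO-labelled and 41% ± 0.314 in WT cells (SD, n = 3). In their sum the pair reached 501 ± 4.38 FPKM in day 2 KO-labelled and 1094 ± 10.3 FPKM in day 2 WT cells (SD, n = 3), so the higher Slc25a4 did not make up the lower Slc25a5. At day 0 the sums were 478 ± 5.51 FPKM in KO-labelled and 778 ± 8.27 FPKM in WT cells (SD, n = 3). Slc25a5 has processed copies in the genome, and how reads shared with them were counted is not given; the annotated Slc25a5-ps was listed at 0 in every library.

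The 250 bases before each annotated start of this pair are shown because the data separate them so clearly. They are RefSeq sequences of build GRCm38.p6, from chrX:36795347-36795596 on the plus strand for Slc25a5 (gene at chrX:36795597-36798808) and from chr8:46211063-46211312 on the minus strand for Slc25a4 (gene at chr8:46207168-46211062). Capitals would mark matches to any of 5 motifs searched on both strands, and neither window holds one.
Slc25a5: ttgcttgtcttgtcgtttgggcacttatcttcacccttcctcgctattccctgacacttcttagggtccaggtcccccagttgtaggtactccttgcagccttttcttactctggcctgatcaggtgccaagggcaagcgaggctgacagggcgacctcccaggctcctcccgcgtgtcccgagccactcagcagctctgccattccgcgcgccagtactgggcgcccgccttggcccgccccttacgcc
Slc25a4: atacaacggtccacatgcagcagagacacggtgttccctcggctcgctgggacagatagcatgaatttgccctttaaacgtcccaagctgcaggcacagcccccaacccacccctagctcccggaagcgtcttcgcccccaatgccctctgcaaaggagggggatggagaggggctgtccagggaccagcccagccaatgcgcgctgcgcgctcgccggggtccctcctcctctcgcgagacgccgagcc
The motifs were the NRF1 palindrome, ERR (AAGGTCA), E-box (CACGTG), C/EBP (TTGCNNAA) and CRE core (TGACGT). Of the 50 carriers, 39 had a promoter entry of 250 bases before to 50 bases after the start, and 11 had none. Among those 39 the NRF1 motif was found in 3 (7.69%, against 7% of 27025 genes) and the ERR motif in 1 (2.56%, against 5.38%). The E-box was found in 7 carriers (17.9%, against 8.09%), the C/EBP motif in 2 (5.13%, against 12.2%) and the CRE core in 5 (12.8%, against 8.37%). A match is a description of letters and no binding was measured.

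**Figure D3:**
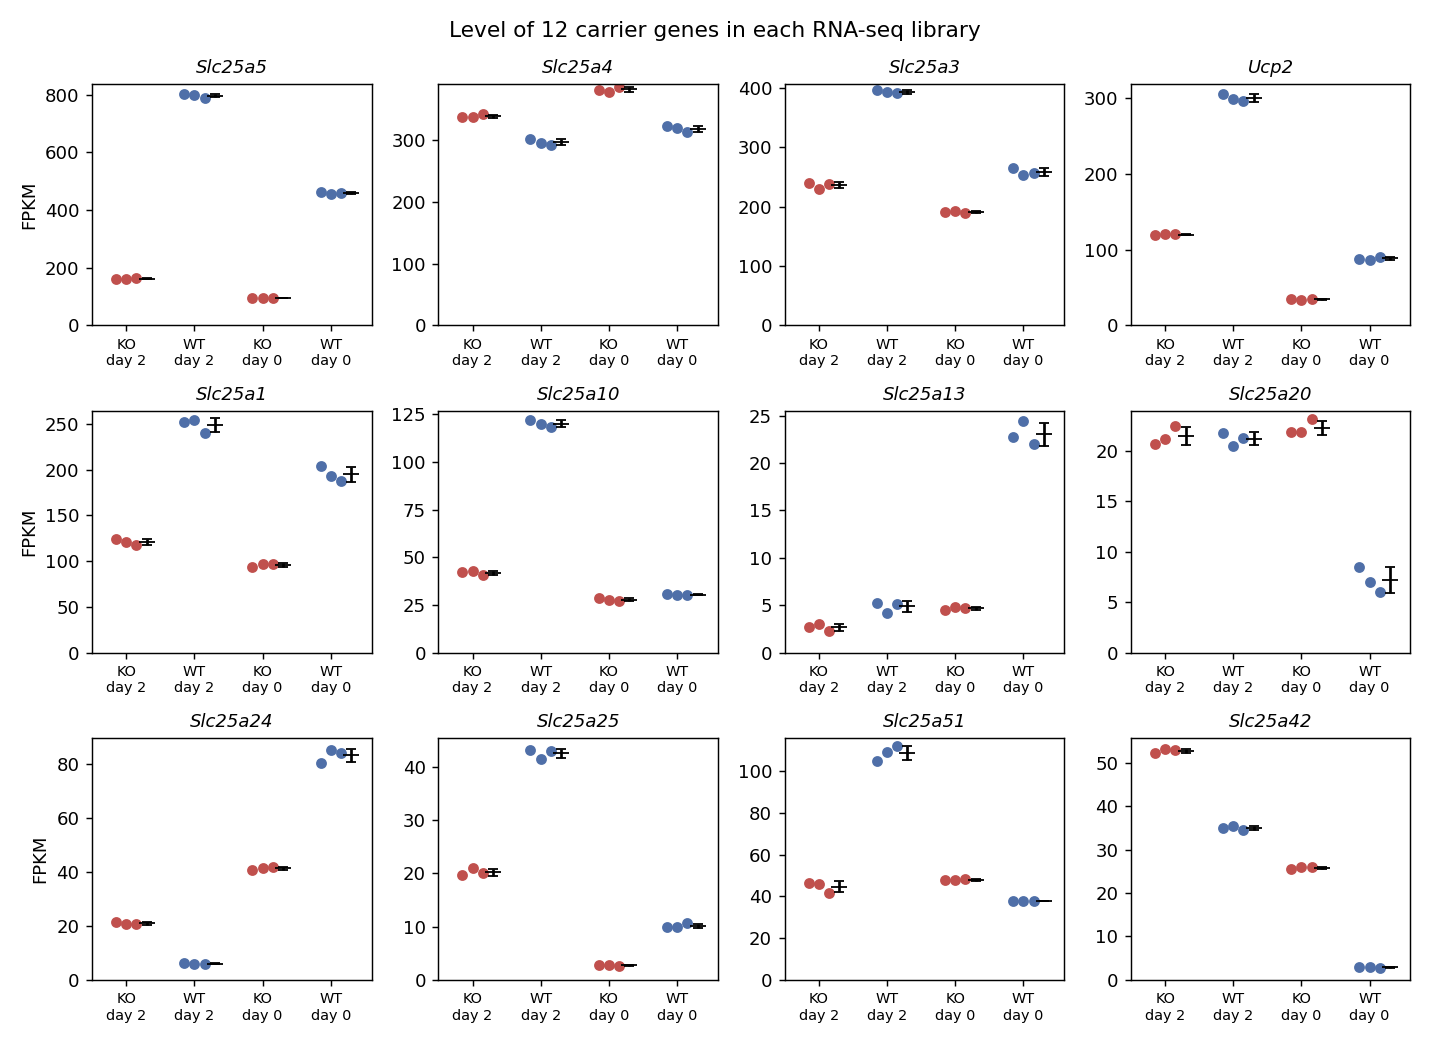
FPKM of 12 carrier genes in each library, with mean and SD beside the 3 points of each group; red points are KO-labelled and blue points WT, and every vertical axis starts at 0. Slc25a20 reads 20.5 to 23.1 FPKM in 3 groups and 6.05 to 8.52 FPKM in day 0 WT cells, while Slc25a13 reads 22 to 24.4 FPKM in day 0 WT cells and at most 5.23 FPKM elsewhere.

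The phosphate carrier was lower as well. Slc25a3, which carries the phosphate needed for ATP synthesis, had 240, 230 and 239 FPKM in day 2 KO-labelled cells, against 397, 393 and 391 FPKM in day 2 WT cells. Its day 0 levels were 191, 192 and 189 FPKM in KO-labelled cells, against 266, 253 and 256 FPKM in WT cells. Its log2 change was -0.74 ± 0.02 at day 2 (adjusted p = 2.99e-11) and -0.44 ± 0.02 at day 0 (adjusted p = 4.29e-09). The splice forms of Slc25a3 known from muscle and other tissues are joined in this value.

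The calcium-regulated carriers that exchange ATP-Mg for phosphate moved in opposite directions between day 0 and day 2. Slc25a24 had 21.5, 20.5 and 20.5 FPKM in day 2 KO-labelled cells, against 6.16, 5.87 and 5.84 FPKM in day 2 WT cells. Before the cocktail it had 40.6, 41.2 and 41.8 FPKM in KO-labelled cells, against 80.3, 84.9 and 84 FPKM in WT cells. KO-labelled cells were thus above WT cells at day 2 (1.65 ± 0.03, adjusted p = 3.72e-13) and below them at day 0 (-0.99 ± 0.03, adjusted p = 4.09e-11). Slc25a25 had 19.6, 20.9 and 20 FPKM in day 2 KO-labelled cells, against 43.1, 41.5 and 42.9 FPKM in day 2 WT cells. In day 0 cells it had 2.78, 2.82 and 2.59 FPKM in KO-labelled cells, against 9.85, 10 and 10.6 FPKM in WT cells. It was the lower in KO-labelled cells both times, 2.11-fold at day 2 (adjusted p = 2.02e-10) and 3.72-fold at day 0 (adjusted p = 5.59e-12). Slc25a24 held 50.8% ± 1.39 of this pair in day 2 KO-labelled cells and 12.3% ± 0.283 in day 2 WT cells (SD, n = 3). The share at day 0 was 93.8% ± 0.327 in KO-labelled and 89.1% ± 0.304 in WT cells (SD, n = 3). Slc25a23, the third gene of this kind, lay below the filter at 0.373, 0.293 and 0.336 FPKM in day 2 KO-labelled cells and 0.0904, 0.17 and 0 FPKM in day 2 WT cells. At day 0 its values were 0.887, 1.04 and 0.921 FPKM in KO-labelled cells and 0.227, 0.136 and 0.23 FPKM in WT cells, with no test made.

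Slc25a25 had the largest log2 rise of the 38 tested carriers in KO-labelled cells over the 2 days. For that reason the window before 1 of its 3 annotated start sites is shown, chosen after the values were seen, at chr2:32424067-32424316 on the minus strand (RefSeq, GRCm38.p6). Capitals mark the CRE core on both strands, as overlapping matches 150 and 148 bases before the start, and a C/EBP match 118 bases before it.
Slc25a25: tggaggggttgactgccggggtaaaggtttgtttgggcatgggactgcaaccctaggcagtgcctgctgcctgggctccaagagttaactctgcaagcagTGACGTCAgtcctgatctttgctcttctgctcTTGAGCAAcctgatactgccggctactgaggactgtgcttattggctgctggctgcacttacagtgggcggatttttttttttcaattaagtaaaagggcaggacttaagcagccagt
Of its other annotated windows 1 held a C/EBP match and the other none of the 5 motifs. Slc25a25 overlaps the tested gene Naif1 by 1014 bases, and without a stated strand setting their reads cannot be told apart there.

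**Figure D4:**
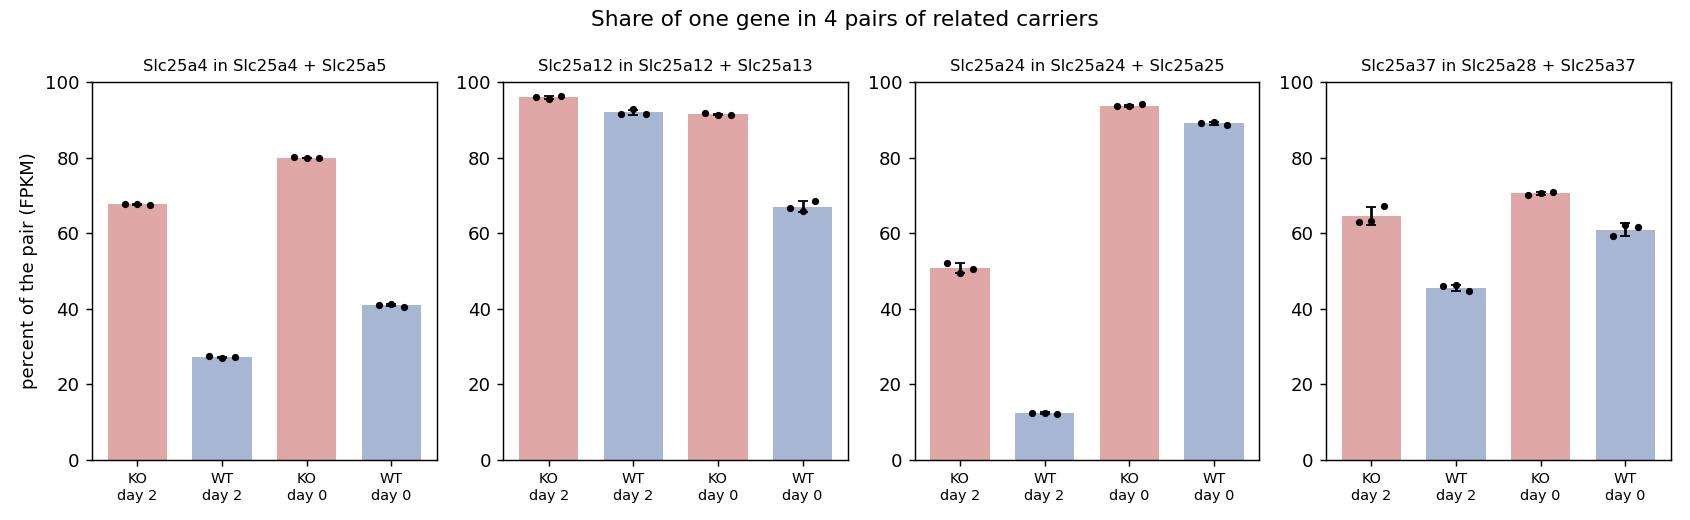
Share of the first-named gene in the summed FPKM of 4 pairs of related carriers, as percent; bars are means of 3 libraries, points single libraries and error bars SD. KO-labelled bars stand above WT bars of the same day in each pair, by the widest margin for Slc25a4 in Slc25a4 plus Slc25a5.

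Among the uncoupling proteins and their relatives Ucp2 had the highest level in every library. Ucp2, which lowers the proton gradient or exports metabolites depending on the tissue, had 119, 120 and 120 FPKM in day 2 KO-labelled cells, against 305, 298 and 296 FPKM in day 2 WT cells. For day 0 the values were 35.2, 34 and 35 FPKM in KO-labelled cells, against 88, 86.7 and 90.6 FPKM in WT cells. It was lower in KO-labelled cells by 2.51-fold at day 2 (log2 change -1.32 ± 0.02, adjusted p = 1.35e-13) and 2.55-fold at day 0 (-1.32 ± 0.02, adjusted p = 1.76e-13). The muscle form Ucp3 did not exceed 0.184 FPKM in any library. Slc25a27, a relative known from brain, had 2.16, 2.03 and 2.01 FPKM in day 2 KO-labelled cells and 1.22, 1.26 and 1.09 FPKM in day 2 WT cells (adjusted p = 0.000251). Earlier, at day 0, it had 3.62, 3.72 and 3.87 FPKM in KO-labelled cells and 1.61, 1.65 and 2.28 FPKM in WT cells (adjusted p = 6.74e-06). Slc25a30, a relative known from kidney, had 11.5, 11.7 and 9.28 FPKM in day 2 KO-labelled cells and 9.08, 8.97 and 9.58 FPKM in day 2 WT cells (adjusted p = 0.0204), with overlapping libraries. Its log2 change of 0.21 missed the threshold with quantile scaling (0.15), in a fit of the compared libraries alone (0.21), without KO-labelled replicate 1 or 2 of day 2 (0.16 and 0.15) and without WT replicate 1 or 2 of day 2 (0.20 and 0.19). Day 0 gave the other order, with 8.4, 7.96 and 8.28 FPKM in KO-labelled cells, against 14.7, 14.2 and 15.6 FPKM in WT cells (adjusted p = 7.40e-07). Slc25a14, known from brain too, differed at day 2, where KO-labelled cells had 4.42, 3.36 and 4.1 FPKM and WT cells 2.97, 2.08 and 2.57 FPKM (adjusted p = 0.00174). Its day 0 change missed the threshold, at 5.07, 5.89 and 4.57 FPKM in KO-labelled cells and 6.07, 6.79 and 5.85 FPKM in WT cells (adjusted p = 0.0784).

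The carriers of citrate, malate and 2-oxoglutarate were all 3 lower in KO-labelled cells at day 2, and 2 of the 3 were lower at day 0. Slc25a1, the citrate carrier, had 124, 121 and 118 FPKM in day 2 KO-labelled cells, against 252, 254 and 240 FPKM in day 2 WT cells. The day 0 values were 93.5, 97.2 and 96.4 FPKM in KO-labelled cells, against 204, 193 and 188 FPKM in WT cells. The citrate carrier therefore stood 2.06-fold lower at day 2 (adjusted p = 4.00e-11) and 2.04-fold lower at day 0 (adjusted p = 5.36e-11). Slc25a10, which exchanges dicarboxylates such as malate and succinate for phosphate, differed mainly after the cocktail. It had 42.1, 42.6 and 40.7 FPKM in day 2 KO-labelled cells, against 122, 120 and 118 FPKM in day 2 WT cells (log2 change -1.50 ± 0.03, adjusted p = 1.75e-13). At day 0 the values were 28.5, 27.6 and 27.1 FPKM in KO-labelled and 30.7, 30.4 and 30.2 FPKM in WT cells (-0.13 ± 0.03, adjusted p = 0.000807), a difference that was lost with TPM scaling, quantile scaling and voom on recovered reads (-0.03 each). Slc25a11, the 2-oxoglutarate/malate carrier of the malate-aspartate shuttle, behaved likewise. It had 70.6, 69.6 and 67.1 FPKM in day 2 KO-labelled cells, against 137, 131 and 127 FPKM in day 2 WT cells (-0.92 ± 0.03, adjusted p = 1.25e-10). Its day 0 values were 73, 75.7 and 75.9 FPKM in KO-labelled and 74.9, 72.5 and 70.2 FPKM in WT cells, where the change of 0.05 ± 0.03 missed the threshold (adjusted p = 0.224) but passed it with TPM scaling at 0.15, quantile scaling at 0.17 and voom at 0.15. The span of Slc25a11 overlaps that of Rnf167 by 302 bases.

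The aspartate-glutamate carriers, which complete that shuttle, differed in opposite directions. Slc25a13, called citrin and known as the liver form, had 2.74, 2.99 and 2.26 FPKM in day 2 KO-labelled cells, against 5.23, 4.21 and 5.17 FPKM in day 2 WT cells. Its day 0 levels were 4.52, 4.77 and 4.69 FPKM in KO-labelled cells, against 22.7, 24.4 and 22 FPKM in WT cells. Citrin was lower by 1.83-fold at day 2 (adjusted p = 1.18e-05) and by 4.94-fold at day 0 (adjusted p = 3.36e-10). Slc25a12, called aralar and known from brain and muscle, had 67.1, 64.3 and 61.6 FPKM in day 2 KO-labelled cells and 58.1, 55 and 57.3 FPKM in day 2 WT cells (0.18 ± 0.03, adjusted p = 0.000423). Before the cocktail it had 50.6, 51 and 49.6 FPKM in KO-labelled and 45.7, 47.1 and 48.1 FPKM in WT cells (0.10 ± 0.03, adjusted p = 0.0163), and this small difference was lost without WT day 0 replicate 1 (0.08). Aralar held 96% ± 0.453 of the pair in day 2 KO-labelled and 92.1% ± 0.671 in day 2 WT cells (SD, n = 3). Its day 0 share was 91.5% ± 0.24 in KO-labelled and 67.1% ± 1.35 in WT cells (SD, n = 3).

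Of the other amino acid carriers, Slc25a29 was higher in KO-labelled cells at both days and Slc25a22 lower at day 2. Slc25a29, a carrier of basic amino acids, had 41.8, 42.3 and 40 FPKM in day 2 KO-labelled cells, against 12.8, 13.6 and 13.4 FPKM in day 2 WT cells (log2 change 1.57 ± 0.04, adjusted p = 1.61e-12). In day 0 cells it had 16.4, 17.4 and 16.6 FPKM in KO-labelled cells, against 7.38, 7.14 and 7.29 FPKM in WT cells (1.10 ± 0.04, adjusted p = 4.41e-11). Slc25a22, a glutamate carrier, had 25.8, 26.9 and 26.6 FPKM in day 2 KO-labelled cells, against 73.7, 71.2 and 70.5 FPKM in day 2 WT cells (-1.41 ± 0.03, adjusted p = 6.39e-13). Its day 0 gap was narrow, with 21.2 FPKM in each KO-labelled library, against 23.3, 22.1 and 23.3 FPKM in the WT libraries (-0.11 ± 0.03, adjusted p = 0.00426), and this call was lost with TPM scaling, quantile scaling and voom (-0.01 each). Slc25a44, which carries branched-chain amino acids and is known for that in brown fat, had 12.4, 11.5 and 13.1 FPKM in day 2 KO-labelled cells and 24.1, 24.4 and 23.8 FPKM in day 2 WT cells (-0.91 ± 0.05, adjusted p = 1.08e-08). At day 0 it was slightly higher in KO-labelled cells (0.23 ± 0.05, adjusted p = 0.00189). The ornithine carrier Slc25a15 was lower at both days, by 1.68-fold at day 2 and 1.95-fold at day 0. Slc25a38, which carries glycine for haem synthesis, was lower at day 0 (-0.38 ± 0.05, adjusted p = 4.34e-05), and at day 2 its change was -0.06 ± 0.05 (adjusted p = 0.289).

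Slc25a20, the carnitine-acylcarnitine carrier through which fatty acids enter for oxidation, had the day 2 WT level already at day 0 in KO-labelled cells. Its values were 20.7, 21.2 and 22.5 FPKM in day 2 KO-labelled cells and 21.8, 20.5 and 21.3 FPKM in day 2 WT cells, which overlapped (0.02 ± 0.08, adjusted p = 0.866). For day 0 the values were 21.9, 21.9 and 23.1 FPKM in KO-labelled cells, against 8.52, 7.01 and 6.05 FPKM in WT cells, a 3.1-fold difference (adjusted p = 6.19e-09).

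Cofactor and nucleotide carriers differed in both directions. Slc25a42, a coenzyme A carrier, had 52.3, 53.1 and 52.9 FPKM in day 2 KO-labelled cells, against 34.9, 35.4 and 34.6 FPKM in day 2 WT cells. Earlier, at day 0, it had 25.5, 25.9 and 25.9 FPKM in KO-labelled cells, against 2.96, 2.97 and 2.68 FPKM in WT cells. It was higher in KO-labelled cells by 1.51-fold at day 2 (adjusted p = 5.96e-09) and by 8.98-fold at day 0 (adjusted p = 1.04e-14). Slc25a51, the NAD carrier, had 46.4, 45.8 and 41.8 FPKM in day 2 KO-labelled cells, against 105, 109 and 112 FPKM in day 2 WT cells (-1.27 ± 0.04, adjusted p = 1.04e-11). Yet at day 0 it was the higher in KO-labelled cells, at 47.6, 47.8 and 48.3 FPKM, against 37.7, 37.9 and 37.8 FPKM in WT cells (0.33 ± 0.04, adjusted p = 2.85e-06).

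Slc25a26, which imports S-adenosylmethionine for methylation in the matrix, was lower in KO-labelled cells at both days. It had 2.77, 2.8 and 2.46 FPKM in day 2 KO-labelled cells, against 13.5, 15 and 14.9 FPKM in day 2 WT cells, a 5.41-fold difference (adjusted p = 1.49e-10). Its day 0 levels were 2.87, 3.73 and 3.38 FPKM in KO-labelled cells, against 7.09, 6.29 and 6.55 FPKM in WT cells (adjusted p = 9.53e-07). Its span overlaps that of Lrig1, at a mean of 106 FPKM, by 131 bases. Slc25a26 had 70 to 428 reads per library, and how many of them belong to Lrig1 cannot be told, which limits the differences given for it. Slc25a33 and Slc25a36, the related pyrimidine nucleotide carriers, differed in opposite directions. Slc25a33 had 2.36, 2.5 and 2.48 FPKM in day 2 KO-labelled cells, against 12.6, 12.4 and 12.3 FPKM in day 2 WT cells, a 5.07-fold difference (adjusted p = 1.75e-11). Before the cocktail it had 2.61, 2.93 and 2.38 FPKM in KO-labelled cells, against 3.94, 3.74 and 3.84 FPKM in WT cells (adjusted p = 3.51e-05). Slc25a36 had 90.3, 91.7 and 88.9 FPKM in day 2 KO-labelled cells, against 48.5, 53.4 and 51.7 FPKM in day 2 WT cells (adjusted p = 4.47e-10). In day 0 cells it had 100, 100 and 105 FPKM in KO-labelled cells, against 47.4, 49.7 and 48.6 FPKM in WT cells (adjusted p = 4.54e-11). For both genes an E-box and a CRE core were found, counted over all promoter windows of a gene. The window of Slc25a33 is shown as the gene of the pair with the larger day 2 difference, at chr4:149774268-149774517 on the minus strand (RefSeq, GRCm38.p6), with its CRE core 29 bases and its E-box 8 bases before the start in capitals.
Slc25a33: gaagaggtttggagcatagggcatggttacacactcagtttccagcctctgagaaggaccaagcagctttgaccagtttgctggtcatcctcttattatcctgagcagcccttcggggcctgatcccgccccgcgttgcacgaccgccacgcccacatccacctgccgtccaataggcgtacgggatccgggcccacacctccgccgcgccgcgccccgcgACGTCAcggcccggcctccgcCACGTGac
Slc25a16, which is tied to coenzyme A in mitochondria, was lower at day 2 (-0.65 ± 0.07, adjusted p = 2.38e-06) and higher at day 0 (0.46 ± 0.07, adjusted p = 5.45e-05). The peroxisomal carrier Slc25a17 had 65, 64.9 and 66.3 FPKM in day 2 KO-labelled cells, against 53.4, 53.2 and 50.9 FPKM in day 2 WT cells (0.31 ± 0.03, adjusted p = 1.25e-06). Its day 0 groups overlapped, at 31.7, 31.3 and 29.5 FPKM in KO-labelled cells and 30.9, 30.7 and 30.4 FPKM in WT cells (0.01 ± 0.03, adjusted p = 0.835), though TPM scaling called a change of 0.11. It rose over the 2 days in both genotypes, 2.12-fold in KO-labelled cells and 1.71-fold in WT cells. The folate and flavin carrier Slc25a32 was 1.23-fold higher at day 2, and its day 0 change was -0.05 ± 0.06 (adjusted p = 0.389).

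The mitoferrins, which bring iron to the matrix, shifted towards Slc25a37 in KO-labelled cells. Slc25a37 had 27.6, 29.1 and 30.5 FPKM in day 2 KO-labelled cells, against 14.8, 14.9 and 15.5 FPKM in day 2 WT cells (0.90 ± 0.04, adjusted p = 2.87e-10). For day 0 the values were 38.5, 39.8 and 39 FPKM in KO-labelled cells, against 31.8, 30.4 and 30.7 FPKM in WT cells (0.33 ± 0.04, adjusted p = 4.42e-06). Its partner Slc25a28 was slightly lower. The values of Slc25a28 were 16.2, 16.8 and 14.8 FPKM in day 2 KO-labelled and 17.5, 17.4 and 19.1 FPKM in day 2 WT cells (-0.16 ± 0.06, adjusted p = 0.0337), a call lost under TPM scaling (-0.12) and without KO-labelled replicate 1, KO-labelled replicate 3 or WT replicate 3 of day 2 (-0.18, -0.11 and -0.12). At day 0 they were 16.4, 16.5 and 16 FPKM in KO-labelled and 21.9, 18.4 and 19.1 FPKM in WT cells (-0.26 ± 0.06, adjusted p = 0.00241). Slc25a39, which is required for glutathione import into mitochondria, had 214, 213 and 215 FPKM in day 2 KO-labelled cells, against 338, 332 and 329 FPKM in day 2 WT cells (-0.64 ± 0.02, adjusted p = 7.64e-11). Earlier, at day 0, it had 191, 190 and 186 FPKM in KO-labelled cells, against 160, 151 and 157 FPKM in WT cells (0.28 ± 0.02, adjusted p = 2.18e-07). Its relative Slc25a40 was much scarcer and was lower at day 2 too, at 9.57, 9.21 and 7.59 FPKM in KO-labelled cells, against 16.5, 15 and 16.9 FPKM in WT cells (adjusted p = 2.66e-06); at day 0 its change was -0.16 ± 0.09 (adjusted p = 0.0969).

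Tested carriers with no role named here had means of 1.79 to 4.83 FPKM over the 12 libraries, apart from Slc25a46 at 11.2 FPKM. Slc25a47 had 4.75, 5.21 and 6.09 FPKM in day 2 KO-labelled cells, against 3.06, 2.71 and 2.96 FPKM in day 2 WT cells (0.70 ± 0.09, adjusted p = 2.32e-05). At day 0 its groups overlapped, at 3.27, 2.91 and 2.62 FPKM in KO-labelled cells and 3.16, 2.83 and 2.52 FPKM in WT cells (0.03 ± 0.09, adjusted p = 0.743). Slc25a53 had 4.66, 4.71 and 4.58 FPKM in day 2 KO-labelled cells, against 2.88, 3.55 and 3.33 FPKM in day 2 WT cells (0.41 ± 0.08, adjusted p = 0.000294). Its day 0 values were 6.03, 5.46 and 6.07 FPKM in KO-labelled cells, against 4.47, 4.91 and 4.02 FPKM in WT cells (0.33 ± 0.08, adjusted p = 0.00161). Slc25a35 and Slc25a45 were also higher in KO-labelled cells at day 2, by 1.47-fold and 1.41-fold, the first not with quantile scaling (0.24), and Slc25a46 of the outer membrane was lower by 1.3-fold. Slc25a34, whose mean lay below the filter, was seen almost only in 1 group. It had 0.0836, 0.0393 and 0.181 FPKM in day 2 KO-labelled cells, against 1.23, 1.41 and 1.42 FPKM in day 2 WT cells. Its day 0 values were 0.124, 0.0522 and 0.0177 FPKM in KO-labelled and 0.122, 0.0365 and 0.0352 FPKM in WT cells, and it was not tested.

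From day 0 to day 2 most carriers rose in WT cells and fewer in KO-labelled cells. No day 2 cells without the cocktail were measured, so the cocktail and time in culture cannot be told apart. Response to the cocktail means here the change from day 0 to day 2. In KO-labelled cells 18 of the 38 were higher and 11 lower at day 2 than at day 0, where 33.9% of all tested genes were higher and 38.8% lower, or 72.7% in either direction. In WT cells 23 were higher and 9 lower, where 34.2% of all genes were higher and 46.5% lower, or 80.7% in either direction. At least 2-fold rises on the log2(FPKM + 1) scale were made by 6 carriers in KO-labelled cells, where 5.46% of all genes made one, and by 13 in WT cells, where 9.28% did. Falls of that size were made by 0 carriers in KO-labelled cells (11 fell past the threshold at a smaller size), where 6.99% of all genes made one, and by 3 in WT cells, where 15.1% did. The median log2 change of the 38 was 0.17 in KO-labelled cells, beside -0.03 for all genes, and 0.64 in WT cells, beside -0.11 for all genes. The same 13 carriers rose in both genotypes, where 18% of all tested genes did, among them Slc25a5, Slc25a3, Slc25a1, Slc25a10, Slc25a25 and Ucp2. Falls in both genotypes were called for 7, where 26.2% of all genes fell in both. These were Slc25a4, Slc25a13, Slc25a14, Slc25a24, Slc25a27, Slc25a37 and Slc25a53, and the calls of 4 of them depend on the processing. The KO-labelled fall of Slc25a14 missed the threshold with no filter (-0.32), median-of-ratios scaling (-0.27) and quantile scaling (-0.18), and without KO-labelled replicate 2 of day 0 (-0.24) or of day 2 (-0.23). That of Slc25a53 missed it with quantile scaling (-0.14), as did the WT falls of Slc25a53 (-0.08) and Slc25a27 (-0.18). The WT fall of Slc25a4 was lost with median-of-ratios scaling (no change at 2 decimals) and with voom (0.02). A further 7 missed the threshold in KO-labelled cells and rose in WT cells, where 9.19% of all genes did. Slc25a11, Slc25a26 and Slc25a51 fell slightly in KO-labelled cells and rose in WT cells, where 7.01% of all genes did. With median-of-ratios scaling the KO-labelled falls of Slc25a11 (-0.06) and Slc25a51 (-0.04) missed the threshold. Those of Slc25a26 and Slc25a51 also missed it with voom (-0.30 and -0.08), in a fit of the compared libraries alone (-0.23 and -0.10), and without KO-labelled replicate 2 of day 0 (-0.16 and -0.10), replicate 3 of day 0 (-0.22 and -0.09) or replicate 3 of day 2 (-0.19 and -0.05); that of Slc25a26 missed it with quantile scaling too (-0.11).

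The difference between the responses was tested as an interaction, the KO-labelled response minus the WT response. It was positive for 12 of the 38 carriers and negative for 17, where 40.8% of all genes were positive and 33% negative, or 73.8% in either direction. The median was -0.06, beside 0.06 for all genes. Of the 17 negative ones 10 reached 2-fold on that scale, where 8.71% of all genes did, and 2 of the positive ones did, where 12.8% did. Slc25a42 rose 2.05-fold in KO-labelled and 12.2-fold in WT cells, an interaction of -2.21 ± 0.05 (adjusted p = 1.98e-12). Slc25a33 had a log2 change of -0.07 ± 0.06 in KO-labelled cells (adjusted p = 0.27) and rose 3.24-fold in WT cells, an interaction of -1.55 ± 0.08 (adjusted p = 7.38e-09).

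Slc25a24 and Slc25a13 fell less in KO-labelled cells. Slc25a24 fell 1.98-fold in KO-labelled cells and 13.9-fold in WT cells, an interaction of 2.64 ± 0.05 (adjusted p = 4.45e-13). Slc25a13 fell 1.75-fold in KO-labelled cells and 4.73-fold in WT cells, an interaction of 1.41 ± 0.12 (adjusted p = 5.44e-07). For several abundant carriers the levels differed while the interaction missed the threshold. Ucp2 rose 3.45-fold in KO-labelled and 3.39-fold in WT cells, and the interaction of 0.01 ± 0.03 missed the threshold (adjusted p = 0.885). Slc25a5 rose 1.7-fold in KO-labelled and 1.74-fold in WT cells (-0.04 ± 0.03, adjusted p = 0.187), and Slc25a1 rose 1.26-fold in KO-labelled and 1.28-fold in WT cells (-0.02 ± 0.05, adjusted p = 0.774). For all 3 this depends on the processing. Voom on recovered reads called the interactions of Slc25a5 (-0.14) and Slc25a1 (-0.12), TPM scaling called that of Slc25a5 (-0.10), and quantile scaling called that of Ucp2 (0.13).

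**Figure D5:**
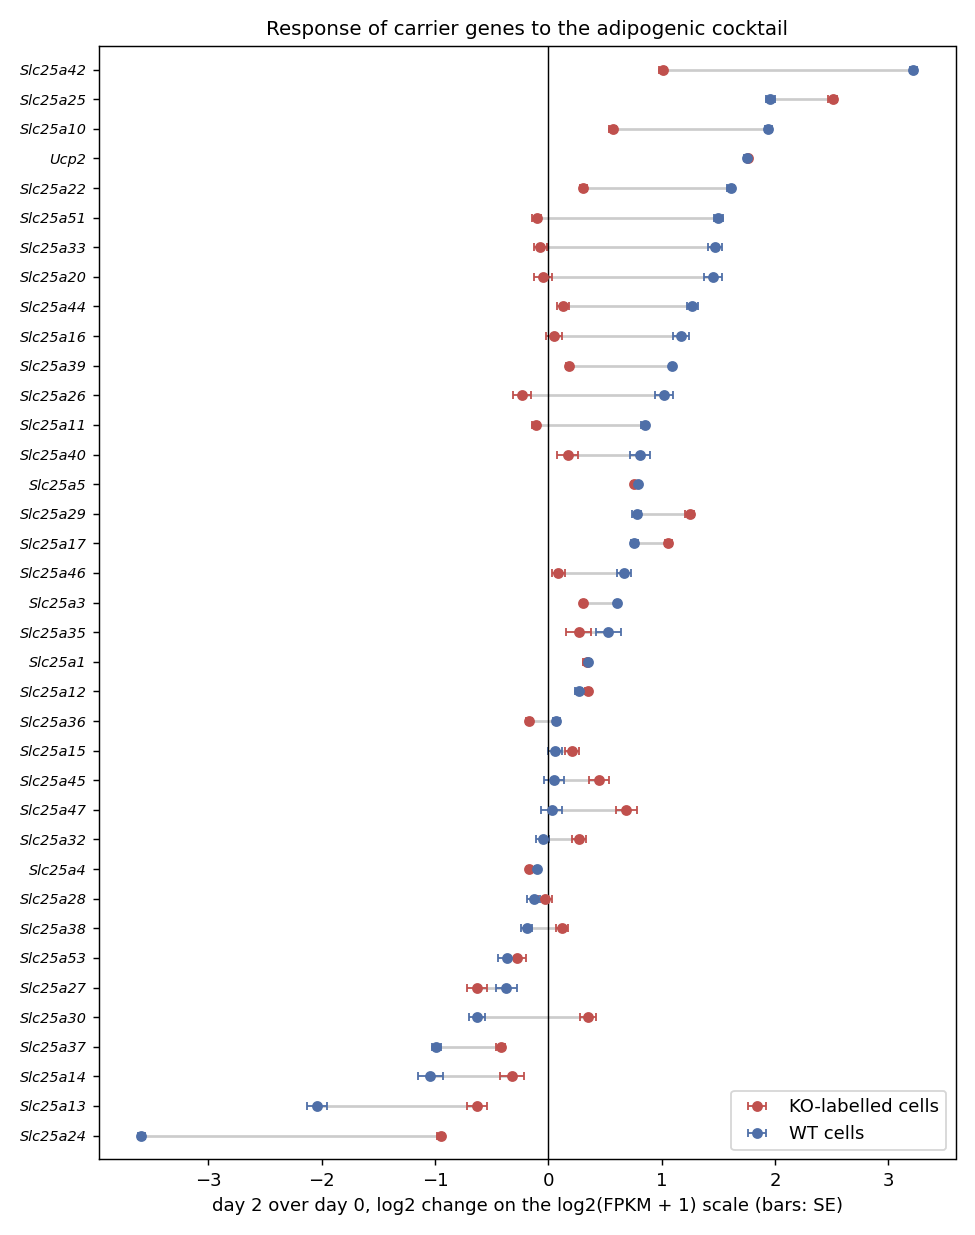
Log2 change of tested carriers, day 2 over day 0, on the log2(FPKM + 1) scale, in KO-labelled cells (red) and WT cells (blue); bars are SE and a grey line joins the genotypes. The lines of Slc25a24 and Slc25a42 are the longest of those drawn, and the points of Ucp2, Slc25a1 and Slc25a5 nearly coincide.

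Genes that work with the carriers were mostly lower in KO-labelled cells. Of 53 tested partner genes 6 were higher and 42 lower in KO-labelled cells at day 2, where 40.8% and 40.6% of all tested genes were, with a median log2 change of -0.76, beside 0.00 for all genes. At day 0, 16 were higher and 32 lower, where 38.3% and 44.2% of all genes were, with a median of -0.31, beside -0.06 for all genes. In the response to the cocktail 30 rose and 16 fell in KO-labelled cells, where 33.9% and 38.8% of all genes did, and 38 rose and 11 fell in WT cells, where 34.2% and 46.5% did. In the import machinery that inserts carriers, 1 of 13 genes was higher and 11 were lower in KO-labelled cells at day 2, and in the response 11 rose in KO-labelled and 13 in WT cells, with none falling in either. Tomm40, the pore of the outer membrane translocase, had 33.9, 32.9 and 32.3 FPKM in day 2 KO-labelled cells, against 110, 109 and 106 FPKM in day 2 WT cells (adjusted p = 5.27e-13). Timm8a1, an intermembrane space chaperone, had 15.6, 14.6 and 16.6 FPKM in day 2 KO-labelled cells, against 75.3, 73.6 and 70.7 FPKM in day 2 WT cells (adjusted p = 1.11e-12). Both were lower at day 0 as well, by 2.37-fold and 4.87-fold. Of 5 enzymes around citrate export 4 were lower in KO-labelled cells at day 2, and Acly, which splits citrate in the cytosol, had a change of -0.01 ± 0.02 (adjusted p = 0.515). Of 4 enzymes of the malate-aspartate shuttle 3 were lower, and the mitochondrial transaminase Got2 had a change of -0.02 ± 0.03 (adjusted p = 0.493). Citrate synthase Cs had 58.6, 58.4 and 59.1 FPKM in day 2 KO-labelled cells, against 258, 256 and 253 FPKM in day 2 WT cells (adjusted p = 2.62e-15). Cytosolic malate dehydrogenase Mdh1 had 102, 97.2 and 99.9 FPKM in day 2 KO-labelled cells, against 516, 503 and 503 FPKM in day 2 WT cells (adjusted p = 3.16e-15). Of 5 tested genes of the carnitine shuttle beside Slc25a20, 1 was higher and 3 were lower in KO-labelled cells at day 2. The higher one was Cpt1c, the brain form of carnitine palmitoyltransferase, with 18.6, 19.5 and 19.1 FPKM in day 2 KO-labelled cells, against 2.27, 1.76 and 2.37 FPKM in day 2 WT cells (adjusted p = 5.00e-12). The carnitine acetyltransferase Crat had 45.2, 42.6 and 44 FPKM in day 2 KO-labelled cells, against 321, 328 and 324 FPKM in day 2 WT cells (adjusted p = 8.09e-16). Among regulators of mitochondrial genes Ppargc1b had 1.77, 2.31 and 1.5 FPKM in day 2 KO-labelled cells, against 34.4, 36.3 and 37.9 FPKM in day 2 WT cells, a 19.5-fold difference (adjusted p = 6.49e-12). Myc, a regulator of growth, was lower in KO-labelled cells by 2.5-fold at day 2 and 5.05-fold at day 0.

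Carriers lay both with and against the median change of all tested genes on their chromosome, KO-labelled over WT. That median was farthest from 0 on chromosomes 8, 6 and 12. On chromosome 8 it was 0.40 at day 2 and 0.36 at day 0, and Slc25a4 and Slc25a42 were higher at both days while Slc25a15 was lower at both. On chromosome 6 it was -0.31 at day 2 and -0.40 at day 0, and Slc25a13 and Slc25a26 were lower at both days. On chromosome 12 it was -0.31 at day 2 and -0.27 at day 0, and Slc25a29 was higher at both days and Slc25a47 at day 2. Slc25a5 lies on chromosome X, whose median was 0.24 at day 2 and 0.06 at day 0, opposite in sign to its own change. Whether gene copy differs between the cells was not tested. Of the 38 tested carriers 4 overlap another tested gene.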

How the data were processed

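Total RNA of 3T3L1 cells was sequenced in 12 libraries; the series' 24 MeRIP and input samples were not analysed here. Per the submitters' processing notes, the tools included TopHat2 2.0.12, Bowtie2 2.2.3 and HTSeq 0.6.1, on build mm10. What each tool did, which annotation and strand setting were used and how FPKM was computed is not given in the sources used here. Values are FPKM as deposited by the authors for 52505 genes. Reads recovered from the steps of the FPKM values were whole in all 30916 genes above 0 (tolerance 0.001 of a read), and came to 18073258 to 23114994 per library.

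With limma 3.58.1 in R 4.3.3, 4 group means were fitted to log2(FPKM + 1) of the 12961 genes whose mean reached 1 FPKM. The fit used a variance trend and left 8 degrees of freedom. Tests were 2-sided, with Benjamini-Hochberg adjustment over all 12961 genes and a threshold of 0.05. Log2 changes and their SE are on the log2(FPKM + 1) scale, which understates changes of low genes; folds are ratios of mean FPKM. The fit was also run on simulated data in which few genes changed, all upward and in 1 group. That run does not test the fit or the scaling under changes as wide as those seen here.

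The members' rule reads symbols only, but the family and the lists were chosen with earlier results of these data known. The list of carriers with no role named was added, and the symbol Pcx put in place of Pc, after the table was seen. Values per library are given for the 6 largest rises and 6 largest falls past the threshold in each comparison, for 15 carriers of textbook roles with the exception named below, and for some of the partner genes with the smallest adjusted p; the other genes are named with their values known. Alternatives were a pseudocount of 0.1, no filter, a mean of at least 5 FPKM, quantile, TPM and median-of-ratios scaling, a replicate block, a fit without variance trend, a fit of the compared libraries alone, voom on recovered reads and each library left out in turn. Promoter windows are RefSeq's for GRCm38.p6; protein sequences were not used here. A single tested carrier enters the counts, medians and sums but is not reported here by itself.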

Additional observations from a re-analysis of the deposited data

Results flagged for a closer look

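The response to the cocktail differed between KO-labelled and WT cells, by the interaction term of the limma fit, in 29 of the 38 tested carriers. That is near the share of all tested genes, of which 73.8% were called. Values are the KO-labelled minus the WT log2 response. Among the cofactor and nucleotide carriers the difference was negative for Slc25a42 (-2.21), Slc25a51 (-1.60), Slc25a33 (-1.55), Slc25a26 (-1.25), Slc25a16 (-1.11) and Slc25a36 (-0.24), and positive for Slc25a17 (0.30) and Slc25a32 (0.32). It was negative for the acylcarnitine carrier Slc25a20 (-1.50) and for the carboxylate carriers Slc25a10 (-1.37) and Slc25a11 (-0.96). Amino acid carriers lay on both sides, with Slc25a22 at -1.30 and Slc25a44 at -1.15 against Slc25a38 at 0.31, Slc25a29 at 0.47 and Slc25a13 at 1.41. Iron and glutathione carriers did so too, with Slc25a39 at -0.91 and Slc25a40 at -0.65 against Slc25a37 at 0.58. Among carriers of adenine nucleotides and phosphate, Slc25a3 (-0.30) and Slc25a4 (-0.07) were negative, and Slc25a25 (0.54) and Slc25a24 (2.64) positive. The Slc25a4 value, with an adjusted p of 0.0359 by limma, lay at the threshold and missed it under several alternatives. The uncoupling protein relatives Slc25a14 (0.72) and Slc25a30 (0.99) were positive, as were Slc25a45 (0.40) and Slc25a47 (0.66), while Slc25a46 was negative (-0.59). With quantile scaling Slc25a32 (0.17) and Slc25a45 (0.30) missed the threshold. The fat cell markers differed between the genotypes in the same response, and their part in these differences was not tested. Dixon's outlier test was not applied to the groups of 3 libraries.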

How the results depend on the processing

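Of 327 counts and medians recomputed under an alternative, 309 moved by less than the spread or stayed within 1.5 times, and 18 moved further; of 4107 values of single carriers 3958 kept direction and call, 56 lost a call, 58 gained one and 35 changed sign. The cause of each shift was not tested beyond what the setting itself changes. The median change of carriers at day 2, KO-labelled over WT, became -0.06 with no filter and -0.65 with a mean of at least 5 FPKM, where 10 carriers were higher; leaving out 1 library gave -0.29 to -0.20. At day 0 the median became -0.05 at that stricter filter, 0.11 with TPM scaling and 0.12 with voom on recovered reads. In the KO-labelled response it became 0.09 with no filter and 0.23 with median-of-ratios scaling. In the WT response it became 0.75 with a pseudocount of 0.1, 0.27 with no filter, 0.79 at the stricter filter, 0.74 with median-of-ratios scaling, 0.71 with quantile scaling and 0.88 with voom. The interaction median became -0.24 at the stricter filter, -0.12 with TPM scaling and -0.16 with voom. Quantile scaling moved the median of all genes in the WT response by 0.12 and no filter by 0.11.

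All signs that turned belonged to changes that missed the threshold, except the WT fall of Slc25a4. At day 0 Slc25a32 was 0.04 with TPM scaling, 0.03 with quantile scaling and 0.05 with voom, and Slc25a47 was -0.02 with quantile scaling. Over left-out libraries the day 0 ranges were -0.01 to 0.04 for Slc25a17, -0.04 to 0.10 for Slc25a45 and -0.03 to 0.09 for Slc25a47. At day 2 Slc25a20 was -0.02 without KO day 2 replicate 3 and -0.01 without WT day 2 replicate 2, in a range of -0.02 to 0.04 over left-out libraries. In the KO-labelled response Slc25a20 was 0.00 and Slc25a28 0.02 with median-of-ratios scaling, and Slc25a28 was 0.01 with quantile scaling and 0.02 without KO day 2 replicate 3, in a range of -0.07 to 0.02 over left-out libraries. Slc25a33 was 0.06 there with quantile scaling. In the WT response Slc25a28 was 0.03 with quantile scaling and Slc25a4 0.02 with voom. Slc25a32 was 0.03 with median-of-ratios scaling, 0.06 with voom and, past the threshold, 0.19 with quantile scaling. Over left-out libraries Slc25a45 was -0.02 to 0.11 and Slc25a47 -0.03 to 0.09 in the WT response. The Ucp2 interaction was -0.05 with TPM scaling, -0.04 with median-of-ratios scaling, -0.08 with voom and -0.01 to 0.02 over left-out libraries, and passed the threshold at 0.13 with quantile scaling. The interactions of Slc25a28, Slc25a53 and Slc25a1 were -0.01, -0.07 and 0.05 with quantile scaling, that of Slc25a1 was -0.05 to 0.01 over left-out libraries, and that of Slc25a12 was -0.03 with voom.

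Same-numbered libraries had deviations correlated at -0.055 to 0.087, and for 6 of 12 the closest library carried the same number, so the numbers were not taken as pairs. With a replicate block the carriers higher and lower at day 2 numbered 16 and 20, and at day 0 16 and 15; the Slc25a4 interaction missed the threshold (adjusted p = 0.0543). Depth limits carriers below 1 FPKM, which were not tested.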

Other observations

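Transporters of the inner membrane outside the carrier family were mostly lower in KO-labelled cells at day 2. Of 12 such genes 2 were higher and 9 lower at day 2, where 40.8% and 40.6% of all tested genes were. Their median log2 change was -0.77, beside 0.00 for all genes. At day 0, 5 were higher and 5 lower, where 38.3% and 44.2% of all genes were. Sfxn1, a serine transporter, had 13.7, 12.8 and 13.4 FPKM in day 2 KO-labelled cells, against 72, 72 and 73.3 FPKM in day 2 WT cells (limma, adjusted p = 1.17e-14). Its relative Sfxn3 was the reverse, at 30.7, 30.5 and 31.8 FPKM in day 2 KO-labelled cells, against 8.42, 8.02 and 8.07 FPKM in day 2 WT cells (limma, adjusted p = 6.00e-14). Mpc2, a subunit of the pyruvate carrier, had 81.4, 77.7 and 83.4 FPKM in day 2 KO-labelled cells, against 266, 257 and 255 FPKM in day 2 WT cells (limma, adjusted p = 1.29e-12). At day 0 it had 26.8, 27.4 and 25.5 FPKM in KO-labelled cells and 25, 23.8 and 23.1 FPKM in WT cells, so the groups lay close together before the cocktail. Mtch1 and Mtch2, carrier relatives of the outer membrane, differed in opposite directions at day 2. Mtch1 was 1.68-fold higher and Mtch2 2.2-fold lower in KO-labelled cells.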
